A study of Mus musculus with 9 samples.

Results

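The genes analyzed are those of 10 proteins that bind BAP1 or share its complex: *Asxl1*, *Asxl2*, *Asxl3*, *Mbd5*, *Mbd6*, *Foxk1*, *Foxk2*, *Hcfc1*, *Ogt* and *Kdm1b*. They were chosen by name, and all 10 were found among the 37273 annotated genes, of which 22367 are protein-coding. The question was whether BAP1 itself was bound at these genes in B cell precursors. The ChIP-Seq was carried out in Ba/F3, a mouse B cell precursor line that depends on IL-3, with the anti-BAP1 antibody in wild type cells and with anti-FLAG M2 in cells stably expressing triple-FLAG-tagged murine BAP1. The labels name no deletion in either line, and the tagged line was kept under puromycin. The authors deposited 1 list of 13164 BAP1 binding sites (peaks) for both immunoprecipitations together, every one 200 bp wide. It gives positions without a height or p-value, each immunoprecipitation was sequenced once, and the depth is unknown, so the values have no replicate error. A peak list holds no expression, so the labelled cell type could not be checked against its markers. The H2AK119ub and input samples of the series, among them those of *Bap1* knockout clones, were not analysed here.

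BAP1 is the catalytic subunit of a deubiquitinase that removes ubiquitin from histone H2A, and it needs an ASXL partner for its activity. The ASXL proteins bind its C-terminal part, and MBD5 and MBD6 bind through the ASXL subunit. The FOXK proteins are forkhead transcription factors that read DNA sequence. HCF1, encoded by *Hcfc1*, is an adaptor that ties sequence-specific factors to chromatin enzymes. OGT attaches the sugar N-acetylglucosamine to nuclear proteins and also cleaves HCF1 into its mature form, while KDM1B removes methyl groups from histone H3. In blood cells the complex is known above all from *ASXL1* and *ASXL2* mutations in myeloid leukemia.

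BAP1 was bound at the promoters of 9 of the 10 genes, all except *Asxl3*. A peak is called gene-proximal when its middle lies within 1 kb of a transcription start site (TSS) of the gene, with all annotated transcripts counted. By the same rule, 26.2% of all annotated genes and 39.6% of protein-coding genes had a gene-proximal peak. The partner genes have more annotated TSSs than most, with a median of 6 against 2 for protein-coding genes, and 65.3% of protein-coding genes with 5 or more TSSs had such a peak. In total 14 peaks were gene-proximal to the partners, of which 9 covered a TSS of the gene and 12 had their middle upstream of the nearest TSS. Each of *Asxl1*, *Mbd5*, *Mbd6*, *Hcfc1* and *Ogt* had 2 gene-proximal peaks, while *Asxl2*, *Foxk1*, *Foxk2* and *Kdm1b* had 1. Among all bound protein-coding genes, 25.5% had 2 or more. The pairs of *Mbd5* and *Ogt* overlap. With peaks merged within 500 bp the partners had 10 gene-proximal intervals, and only *Asxl1* kept 2, while the 25.5% is for unmerged peaks. As the genes were chosen with these results known, the counts describe the list and no test was made.

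**Figure D1:**
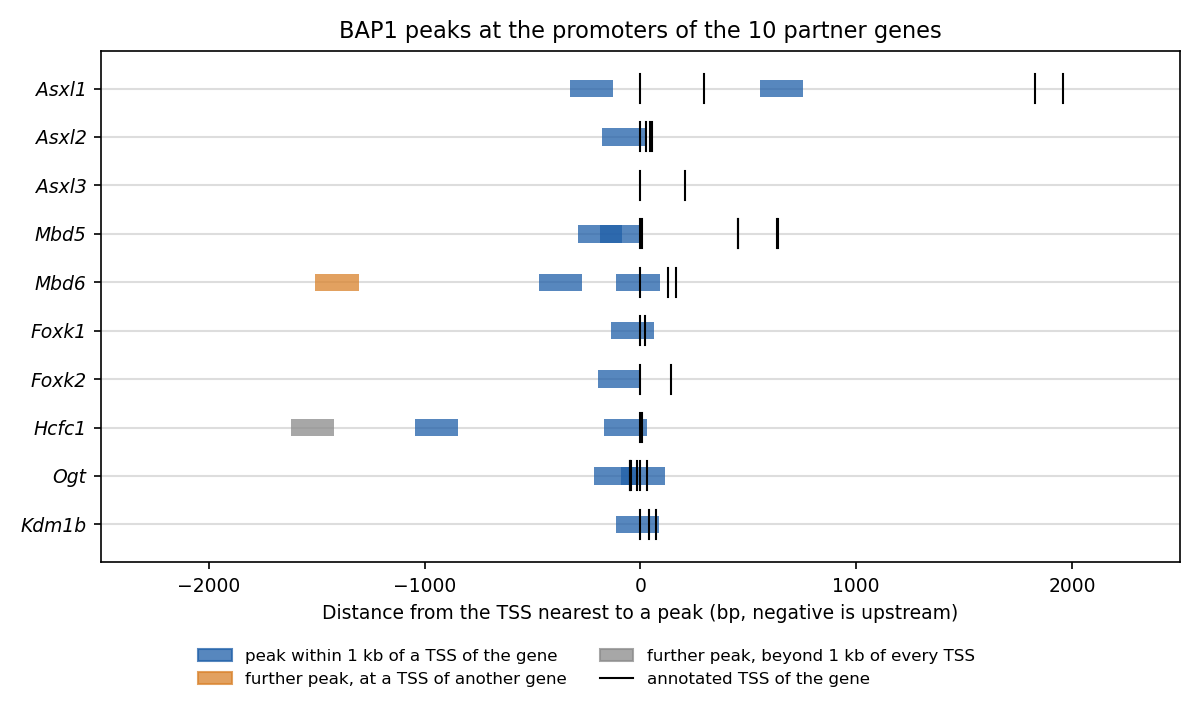
BAP1 peaks (bars, to scale, 200 bp) around each of the 10 genes, with the distance in bp from the TSS nearest to a peak on the x axis (for *Asxl3*, from its first TSS) and black ticks for annotated TSSs of the gene. In 9 genes at least 1 peak lies at or just upstream of a TSS, while the second peak of *Asxl1* lies in an intron. *Mbd5* and *Ogt* have overlapping pairs, and *Asxl3* has no peak.

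The DNA of 6 of these peaks is printed because the CpG sites and the matches to known factor motifs next to the start site can be read from it. Each run is the part of the peak outside every annotated exon, in mm9 coordinates, read 5′ to 3′ on the strand of the gene so that it ends at or before the first TSS. Capitals mark exact matches, on either strand, to the motifs described further on.

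*Asxl2*, chr12:3426677-3426856, plus strand: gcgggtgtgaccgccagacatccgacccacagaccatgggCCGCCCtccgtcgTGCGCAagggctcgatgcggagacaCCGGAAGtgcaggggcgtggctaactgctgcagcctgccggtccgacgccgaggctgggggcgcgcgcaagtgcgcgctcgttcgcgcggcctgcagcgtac
*Mbd5*, chr2:48804844-48805029, plus strand: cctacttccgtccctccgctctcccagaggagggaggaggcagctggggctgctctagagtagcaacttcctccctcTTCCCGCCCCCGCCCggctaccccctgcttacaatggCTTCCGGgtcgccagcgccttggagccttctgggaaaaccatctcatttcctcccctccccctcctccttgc
*Foxk1*, chr5:142877313-142877450, plus strand: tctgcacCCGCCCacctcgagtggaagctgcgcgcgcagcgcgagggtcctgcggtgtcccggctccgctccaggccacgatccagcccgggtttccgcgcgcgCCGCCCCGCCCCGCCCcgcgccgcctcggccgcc
*Hcfc1*, chrX:71211697-71211866, minus strand: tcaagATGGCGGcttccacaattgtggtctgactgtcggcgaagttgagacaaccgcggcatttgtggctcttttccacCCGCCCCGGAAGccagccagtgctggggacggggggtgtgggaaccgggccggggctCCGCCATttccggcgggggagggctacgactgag
*Ogt*, chrX:98835232-98835398, plus strand: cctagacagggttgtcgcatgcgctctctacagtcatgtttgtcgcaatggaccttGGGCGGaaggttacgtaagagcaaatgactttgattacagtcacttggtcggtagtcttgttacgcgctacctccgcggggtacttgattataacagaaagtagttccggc
*Kdm1b*, chr13:47138754-47138867, plus strand: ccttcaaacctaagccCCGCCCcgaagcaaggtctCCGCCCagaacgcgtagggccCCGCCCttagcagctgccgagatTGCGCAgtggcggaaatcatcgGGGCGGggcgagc

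The ASXL genes fell into bound and unbound members. *Asxl1* (chr2:153171581-153229743, plus strand) had 2 gene-proximal peaks, which stood on either side of both 5′ coding start sites. The upstream peak, from 153171253 to 153171452, had its middle at -229 bp from the first TSS, where a negative sign is upstream. The other, from 153172135 to 153172334, was in an intron, 359 bp after the TSS of a second coding transcript. Neither covered a TSS, and the middles were 882 bp apart. The upstream peak lay nearer to the start of a noncoding gene on the opposite strand, *2500004C02Rik*, a long intergenic noncoding RNA whose closest TSS is 35 bp from an *Asxl1* TSS.

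*Asxl2* (chr12:3426857-3506852, plus strand) had 1 peak, from 3426677 to 3426876. Its middle was at -81 bp, and it covered the first TSS of a group of 4 that span 55 bp. Its promoter is shared with a protein-coding gene on the opposite strand, *1110002L01Rik*, with 213 bp between the start sites. No further peak was listed within 50 kb of *Asxl1* or *Asxl2* beyond those at their promoters.

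*Asxl3*, which is best known for its role in neural development, had no BAP1 peak. The gene (chr18:22503384-22688728, plus strand) is 185 kb long, and 0 peaks were inside it or within 50 kb of its TSSs. The nearest peak of the chromosome was upstream, at -563 kb. Among protein-coding genes, 37.2% had no peak within 50 kb.

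Both MBD genes were bound. *Mbd5* (chr2:48805030-49177804, plus strand) is the longest of the partners at 373 kb, and its 2 peaks overlapped by 99 bp at the far 5′ end. Their middles were at -188 and -87 bp, and the second one covered the first TSS. Of 10 annotated TSSs of *Mbd5*, 6 had a peak within 1 kb, and these lie in the first 639 bp of the gene. The other 4 lie 296302 bp or more downstream, include 3 that start coding transcripts, and had their nearest peak at least 179679 bp away. The *Mbd5* peaks also fell within 1 kb of the start of *Orc4*, an origin recognition complex subunit required for DNA replication. *Orc4* is transcribed from the opposite strand, the closest start sites of both genes are 76 bp apart, and the peak at -188 bp of *Mbd5* was nearer to *Orc4*.

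*Mbd6* (chr10:126719012-126726074, minus strand) is the shortest of the partners, at 7.06 kb. The middle of its nearest peak, from 126725986 to 126726185, was at -11 bp and covered the first TSS. A second gene-proximal peak stood at -370 bp, and another peak, at -1406 bp, was outside the 1 kb limit and within 1 kb of the stress response gene *Ddit3* and of the noncoding gene *RP24-341K21.6*. Of 7 TSSs of *Mbd6*, the 3 most upstream had a peak within 1 kb. The 4 further inside the gene, between 3118 and 5350 bp from the first, did not.

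The forkhead genes *Foxk1* and *Foxk2* each carried 1 gene-proximal peak, but differed in which of their start sites it marked. In *Foxk1* (chr5:142877451-142937968, plus strand) both annotated TSSs are 20 bp apart and were covered by the peak from 142877313 to 142877512, at -39 bp. In *Foxk2* (chr11:121116808-121171210, plus strand) the first TSS had its nearest peak 4399 bp downstream. The *Foxk2* peak, from 121121108 to 121121307, instead covered the second TSS, which lies 4496 bp inside the gene, and its middle was at -97 bp from it, in an annotated exon. Of the bound protein-coding genes, 94.8% had a peak within 1 kb of their first TSS, so *Foxk2* belonged to the minority. Of the 9 bound partners it was the only one without a peak there.

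*Hcfc1* and *Ogt*, whose products act on each other, are both on chromosome X, where 23.6% of protein-coding genes had a gene-proximal peak against 40.3% on the autosomes. In *Hcfc1* (chrX:71188131-71211696, minus strand), the peak from 71211667 to 71211866 covered both 5′ coding TSSs, which are 6 bp apart, with its middle at -70 bp. A further peak at -944 bp was the furthest of the gene-proximal ones, and the next, at -1519 bp, was just outside the limit. These 3 peaks did not overlap, and no other gene started within 1 kb of them. The 4 internal TSSs of *Hcfc1* had no peak within 1 kb.

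*Ogt* (chrX:98835399-98879690, plus strand) had 2 peaks that overlapped by 73 bp, with middles at -68 and 11 bp. Together they lay over 6 start sites within the first 80 bp of the gene, and the peak at 11 bp covered all 6 of them. *Ogt* was the only partner whose nearest peak had its middle downstream of the TSS. The remaining TSS, 15285 bp inside the gene, had none. Overlapping peaks such as those of *Mbd5* and *Ogt* share DNA and are not separate sites, and 12.3% of all peaks overlapped another one in the list.

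*Kdm1b* (chr13:47138868-47179982, plus strand) had 1 gene-proximal peak, from 47138754 to 47138953, at -15 bp. It covered the 3 start sites of the 5′ end. The 3 TSSs that lie 19507 bp or more inside the gene, among them 1 of a coding transcript, had none. The peak was also within 1 kb of a TSS of *Tpmt*, a thiopurine methyltransferase gene on the opposite strand, whose closest TSS is 156 bp from one of *Kdm1b*. This is not the first TSS of *Tpmt*, which is 1238 bp from that of *Kdm1b*. The middle of the peak was in an annotated intron of *Tpmt*.

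Over the 9 bound partners, the nearest peak ranged from -229 to 11 bp of a TSS, with a median of -70 bp. For all 8850 bound protein-coding genes the median was -32.5 bp and the quartiles were -73.0 and 0.0 bp. The middle was upstream in 8 of the 9 partners, and in 6634 of the 8850 bound protein-coding genes. *Asxl1* was the only bound partner whose nearest peak did not cover a TSS. A peak middle lay within 100 bp of a TSS in 8 of the 9 partners and in 6883 of the 8850 bound protein-coding genes. Of all 56 TSSs annotated for the 10 genes, 30 were within 1 kb of a peak. Except in *Foxk2*, these were the TSSs at the 5′ end of the gene.

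**Figure D2:**
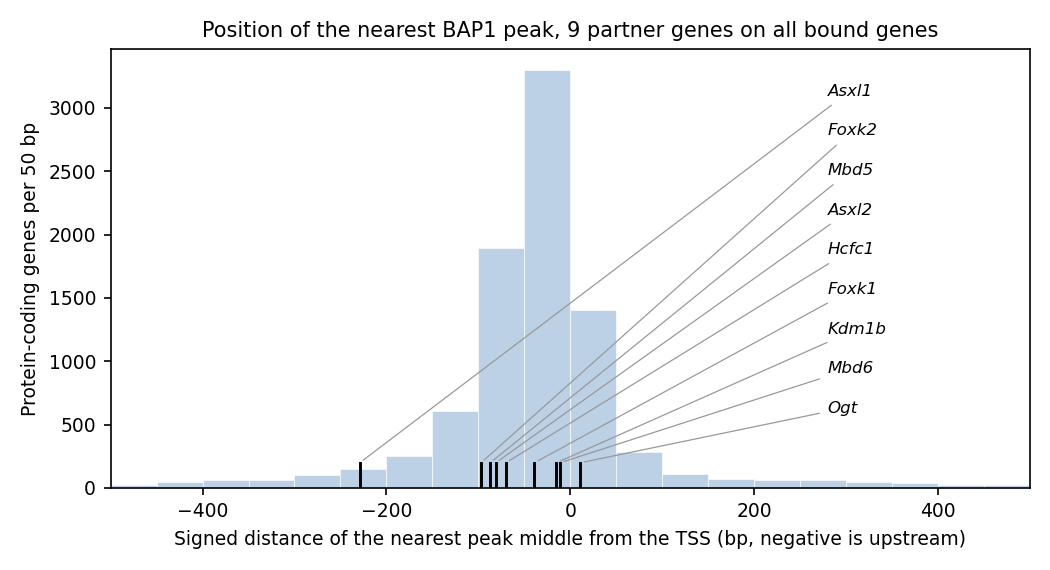
Signed distance in bp from the TSS to the middle of the nearest peak (x axis, negative is upstream), as the number of protein-coding genes per 50 bp (bars) with a black tick for each of the 9 bound partners. The partners lie between -229 bp (*Asxl1*) and 11 bp (*Ogt*), and 8 of them are upstream of the TSS.

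Some peaks of the partners were also close to a TSS of another gene. For 5 of the 9 bound genes (*Asxl1*, *Asxl2*, *Mbd5*, *Mbd6* and *Kdm1b*), a gene-proximal peak also lay within 1 kb of a TSS of another gene, as it did for 32.7% of bound protein-coding genes. All 5 neighbors are transcribed from the opposite strand. In 3 of the 5 the neighbor is protein-coding (*1110002L01Rik*, *Orc4* and *Tpmt*), and 25.8% of bound protein-coding genes had a protein-coding neighbor of this kind. These shares were not matched for the number of TSSs, of which the partners have more than most genes. At such promoters the list cannot tell which gene a peak belongs to. The peaks of *Foxk1*, *Foxk2*, *Hcfc1* and *Ogt* had no other gene start within 1 kb.

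Further peaks, beyond 1 kb and up to 50 kb from any TSS of the gene, were present at 5 of the 10 partners and numbered 16 in all. The share of protein-coding genes with such further peaks was not computed, so these counts only describe the partners. Of these, 10 lay within 1 kb of a TSS of another gene. Around *Hcfc1* there were 5 further peaks: besides the one at -1519 bp, they marked the starts of *Renbp*, *Naa10* and *Arhgap4*, and a site inside *Arhgap4*, between 16.6 and 36.1 kb from the last TSS of *Hcfc1*. Around *Kdm1b* they marked *Nhlrc1*, at -28.6 kb, and *Dek*, a chromatin protein gene, 39.8 kb downstream of its last TSS. Around *Foxk2*, peaks at -26.2 and -18.3 kb were at the starts of *BC017643* and *Narf*. Another, at -19.8 kb, lay beyond 1 kb of every TSS, with its middle at -1571 bp of *Narf*. Around *Mbd6* the starts of *Mars*, a methionyl-tRNA synthetase gene, and *Dctn2*, a dynactin subunit gene, were marked besides the peak at -1406 bp.

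*Foxk1* was the only partner with a peak inside the gene beyond 1 kb of its TSSs. A pair of overlapping peaks was in an intron of *Foxk1*, 38.9 and 39.1 kb downstream of the TSS, and another further peak stood at -34.1 kb. All 3 lay beyond 1 kb of every annotated TSS. *Asxl1*, *Asxl2*, *Asxl3*, *Mbd5* and *Ogt* had no further peak within 50 kb. Widening the search from 1 kb to 50 kb could have added only *Asxl3* to the 9, and did not. Over the same widening the share of protein-coding genes with a peak rose to 62.8%.

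**Figure D3:**
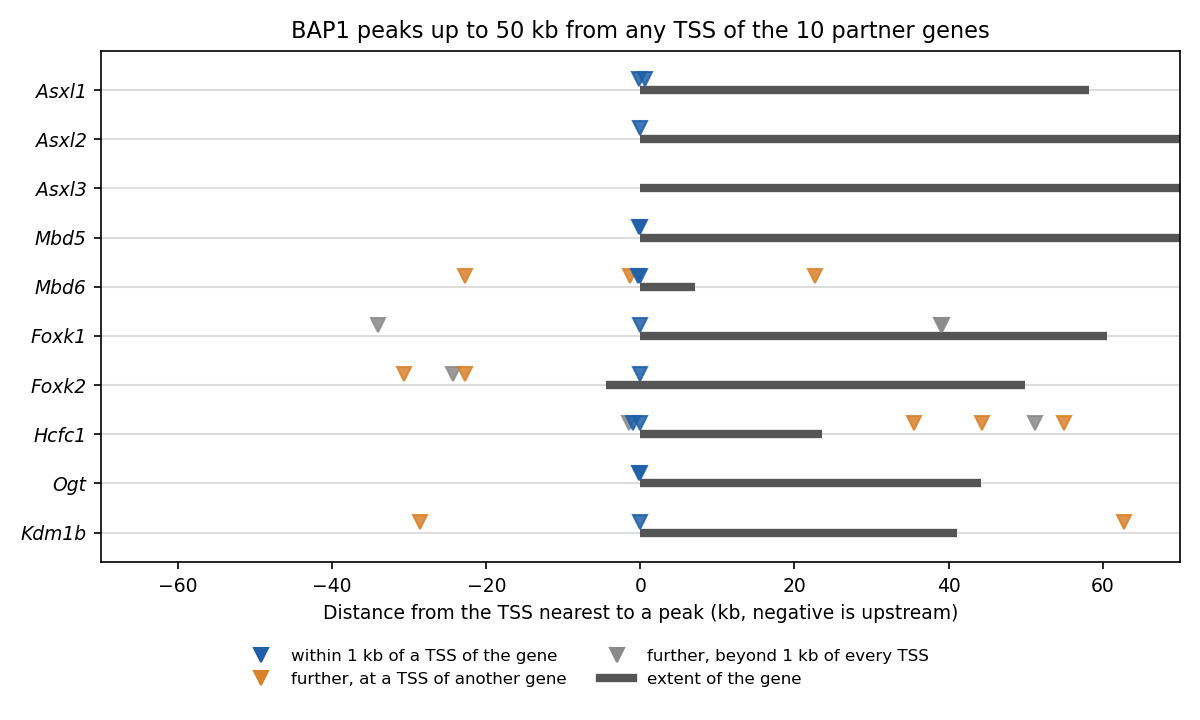
All 30 peaks up to 50 kb from any TSS of the partners (triangles), by distance in kb from the TSS nearest to a peak (x axis; for *Asxl3*, from its first TSS), with dark bars for the extent of each gene, cut at the right edge for *Asxl2*, *Asxl3* and *Mbd5*. Blue triangles are gene-proximal to the partner, orange ones are at the start of another gene, and the 6 gray ones lie beyond 1 kb of every TSS.

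The promoter CpG ratio, observed over expected CpG in 500 bp on either side of the TSS, had a median of 0.833 over the 10 partners and of 0.572 over all protein-coding genes. It was taken at the TSS nearest to a peak, or at that of the longest transcript in genes without a gene-proximal peak, so the start site of a bound gene was itself set by the binding. At the start of the longest transcript in every gene, the medians were 0.736 and 0.557. *Foxk2* had the highest ratio, 1.17, and *Foxk1* followed with 0.998. *Asxl1*, *Asxl2* and *Ogt* were close to each other with 500 bp on either side, with ratios of 0.966, 0.961 and 0.928. These 5 were above the upper quartile of bound protein-coding genes, which was 0.868, while *Kdm1b* (0.737), *Hcfc1* (0.690), *Mbd6* (0.655) and *Mbd5* (0.519) were below their median of 0.772. *Mbd5* was also below the median of all protein-coding genes.

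The unbound *Asxl3* had a ratio of 0.735, nearly that of *Kdm1b*, where protein-coding genes without a gene-proximal peak had a median of 0.296. Of the 7043 protein-coding genes with a ratio at or above that of *Asxl3*, 75.5% had a gene-proximal peak. At *Foxk2* the ratio depended on the start site: at the first TSS, without a peak, it was 0.252.

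**Figure D4:**
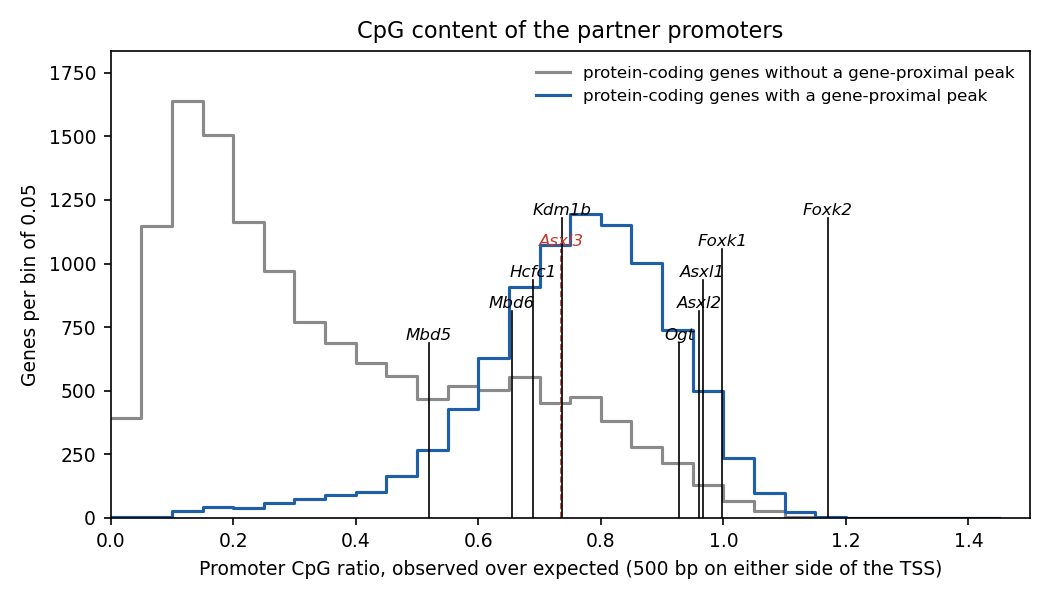
Promoter CpG ratio (x axis) as genes per bin of 0.05, for protein-coding genes with (blue) and without (gray) a gene-proximal peak, with a vertical line for each partner. *Asxl3* (dashed) lies at 0.735 within the range of the bound partners, 0.519 to 1.17.

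The sequences under the 14 gene-proximal peaks had a median GC content of 67.8%, against 67.0% for all 10073 gene-proximal peaks of the list. The lowest was 49.5%, in the *Ogt* peak at 11 bp, and the highest, 79.5%, was shared by *Asxl1* (359 bp), *Mbd6* (-11 bp) and *Foxk2*. CpG sites per peak numbered from 6, in the *Mbd6* peak at -370 bp, to 42, in the *Foxk2* peak, with a median of 16.5 against 19 over all gene-proximal peaks.

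The peaks were searched for exact matches to 10 short motifs of promoter factors on both strands: CCGGAAG (ETS), TGCGCA (NRF1), ATGGCGG (YY1), GGGCGG (SP/KLF), GTAAACA (forkhead), TGACGT (part of the cAMP response element, CRE), GCGGGAA (E2F), CACGTG (E-box), ACTACAA (ZFP143/THAP11) and CCAAT (NFY). The SP/KLF and E2F motifs can overlap, as in the run TTCCCGCCC of *Mbd5*, and the ETS and SP/KLF matches of *Hcfc1* share a base. A match shows only that the letters are present.

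GGGCGG, bound by the SP and KLF factors, was found in all 14 peaks, and in 68.6% of gene-proximal peaks as a whole. *Kdm1b* had 5 matches in its peak, and *Foxk1* had 4, of which 3 were centered at -32, -27 and -22 bp of the TSS. The ETS motif was found in 3 of the 14 peaks, 1 each of *Asxl2*, *Mbd5* and *Hcfc1*, and in 20.2% of all gene-proximal peaks. NRF1, a factor of nuclear genes for mitochondria, had a match in 3 of the 14 peaks, 1 each of *Asxl2*, *Mbd6* and *Kdm1b*, and in 14.8% of gene-proximal peaks.

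YY1 is itself known to bind HCF1 and BAP1. Its motif was found in 2 of the 14 peaks, 1 each of the X-linked *Hcfc1* and *Ogt*, and in 9.13% of gene-proximal peaks. *Hcfc1* held it at both ends of the printed sequence, centered at -162 and -31 bp of its TSS. In *Ogt* it was in the peak at 11 bp, within a stretch that is transcribed and is not printed here. The E2F motif occurred in 3 peaks, of *Asxl1* and the overlapping pair of *Mbd5*, which share the match (7.13% of gene-proximal peaks). The E-box occurred in 1 peak, of *Mbd5* (8.06%), and NFY in 1, of *Foxk2* (30.0%). No peak of the partners held the forkhead motif of the FOXK family, which 2.09% of gene-proximal peaks held. None held the TGACGT letters of the CRE (10.9%) or the ZFP143/THAP11 letters (2.92%).

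**Figure D5:**
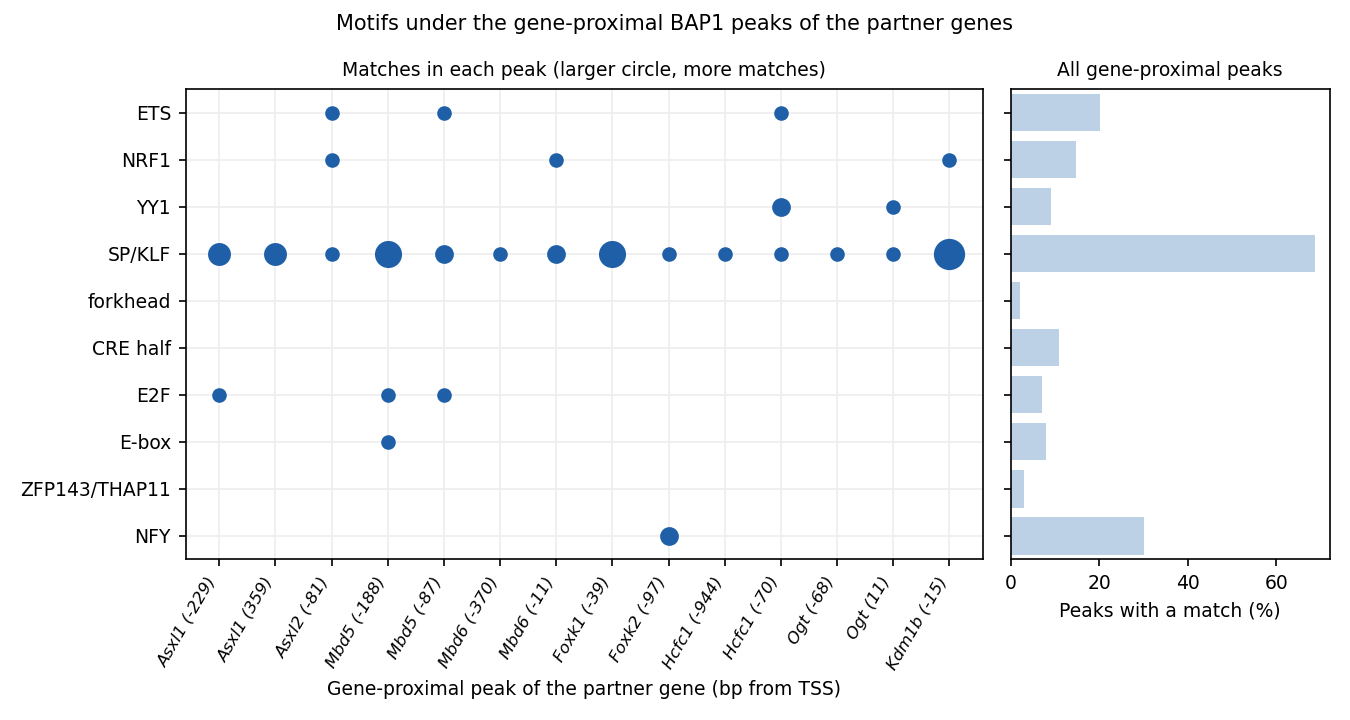
Matches to 10 motifs (rows) in the 14 gene-proximal peaks of the partners (columns, with the distance in bp from the TSS), where larger circles are more matches, beside the share of all 10073 gene-proximal peaks with a match (bars, percent). SP/KLF is present in every column, and the YY1 row has circles in *Hcfc1* and *Ogt* only.

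*Bap1* itself and 8 further genes whose products bind BAP1 or are its substrates were looked up in the same way. Of the 9, 7 had a gene-proximal peak, as did 39.6% of protein-coding genes and 65.3% of those with 5 or more TSSs. The related genes were not matched to others by number of TSSs. The peak of *Bap1* was at -86 bp of its TSS. *Yy1* had 3 gene-proximal peaks, the nearest at -163 bp. The peak of *Brca1*, the tumor suppressor gene after which BAP1 was named, was more distant, at -797 bp. The list lacked a peak within 50 kb for *Klf5*, an epithelial transcription factor, and for *Ppargc1a*, a regulator of mitochondrial genes. For the 14 genes of HCF1 partners, which include *Thap11*, *Zfp143* and *Gabpa*, E2F factors and subunits of the histone methyltransferase complexes such as *Setd1a*, *Wdr5* and *Ash2l*, a gene-proximal peak was present at 14, and at 9 of these there were 2 or more, as at 25.5% of bound protein-coding genes. Their nearest peaks ranged from -255 to 293 bp, with a median of -29.5 bp.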

How the data were processed

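ChIP-Seq reads were mapped by the authors to mm9 with Bowtie 1.0.0, and peaks were called with MACS 1.4.2 against input DNA of the same cells. The authors deposited 1 list with a chromosome, start, end and name per peak. Its threshold and the rule that joined both samples are not given in the sources used here, and another threshold would change which genes have a peak. The list was placed on GENCODE M1, which uses the same build, without the mitochondrial genes. Positions are counted from 1, and the middle is the start of the interval in the file plus 100 bp. Distances are to the nearest TSS of the gene and are negative upstream. Printed sequences and CpG ratios come from the mm9 genome. Members and lists were chosen with earlier results of these data known, and no test was made. The named genes are all members, *Bap1*, *Yy1* and, of the related genes, those without a gene-proximal peak, and the other related genes named were chosen after their values were seen. The number of per-sample columns left unmatched was 0. The scripts, in Python 3.11.15 with numpy 2.4.6, were tested on simulated data. The alternatives tried were other windows around the TSS, the edge of the peak, a single TSS per gene, coding transcripts, merged peaks and other CpG and motif windows. A gene of the family lists is not reported here and was left out of their counts, for a reason unrelated to its value.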

Additional observations from a re-analysis of the deposited data

How the results depend on the processing

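The count of 9 bound partners was the same with windows of 0.5, 2 and 5 kb, with the edge of the peak, with coding transcripts and with peaks merged within 500 bp. It was 8 when each gene kept only the start of its longest transcript, where *Foxk2* was lost because its peak is 4399 bp from that start. The share of protein-coding genes with a peak moved from 37.6 to 42.5% over these settings. The 14 gene-proximal peaks became 10 intervals on merging, which joins the pairs of *Mbd5*, *Mbd6* and *Ogt* and joins the *Hcfc1* peaks at -944 and -1519 bp into an interval whose middle is beyond 1 kb. The median CpG ratio of the partners was 0.789 with 250 bp and 0.752 with 1 kb on either side. Over all protein-coding genes these medians were 0.622 and 0.479. That of the partners was 0.736 with the TSS of the longest transcript, a setting chosen after seeing the data, as were those for the related genes. The ratio of *Mbd5* was 0.495 and 0.402 with 250 bp and 1 kb, and that of *Foxk2* 0.252 at the start of its longest transcript. With 250 bp and 1 kb *Ogt* had 0.763 and 0.729, below *Asxl1* (0.965 and 0.843) and *Asxl2* (0.957 and 0.888). In 400 bp centered on the peak, the E-box and NFY motifs were each found in 3 partners instead of 1, and ZFP143/THAP11 in 1 instead of 0. Peak strength, the agreement of both immunoprecipitations and a stricter threshold were not examined here, as the list used holds no scores. No paired analysis was possible because the list holds no values per sample.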

Other observations

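A further list of 10 genes held relatives of the partners and of BAP1, and *Mgea5*. A gene-proximal peak was present at 9 of the 10. The share was 39.6% over protein-coding genes and 65.3% over those with 5 or more TSSs. The listed genes were not matched by number of TSSs. The bound relatives include the methyl-CpG binding genes *Mbd1*, *Mbd2*, *Mbd3* and *Mbd4*, and *Kdm1a*, the paralog of *Kdm1b*, with its nearest peak at -65 bp. *Mgea5*, which encodes the enzyme that removes the sugar added by OGT, and *Hcfc2*, the paralog of *Hcfc1*, had their nearest peaks at 77 and 97 bp. Among the relatives of BAP1 in the UCH family of deubiquitinases, *Uchl3* and *Uchl5* had a gene-proximal peak, at 85 and -73 bp. *Uchl1*, a neuronal enzyme, had no peak within 50 kb.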
